A study of Mus musculus with 16 samples.

Results

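The collagen alpha chain genes were examined in peritoneal macrophages (PM) loaded with oxidized LDL. They were taken as every gene of the deposited table whose symbol has the form Col, a type number, a and a chain number. This gave 44 genes of 48432, whatever their level. The PM came from 4 groups of 4 samples each. LDAH-Tg PM carried a hemizygous transgene that overexpresses LDAH, a lipid droplet-associated hydrolase, from the promoter and first intron of Csf1r, which is active in myeloid cells. Their controls (Tg control) had no transgene, and their genotype label also names ApoE without saying which allele they carried. LDAH-KO PM had a targeting cassette in place of the first coding exons of Ldah in all cells, and their controls (KO control) were labelled LDAH WT. The strain of all 16 samples was given as C57BL/6J, although the transgenic founders were made in B6D2F1. Age, sex and any pooling of mice were not given for the sequenced samples. All PM were elicited with 3% thioglycolate, harvested on day 5 and given oxLDL at 50 μg/ml for 48 h, so no untreated PM were compared.

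The values are the authors' mean TPM (a share of all transcripts, scaled for transcript length) of each group. No value of a single sample was in the table, so the means carry no SD, their differences could not be tested against the spread between mice, and depth is unknown. Where a log2 ratio is given, 0.5 TPM was added to both means, and a gene entered when its mean over both groups was at least 1 TPM and neither was 0. Genes whose ratio reached a factor of 1.5 were counted, which is a matter of size and involves no test. Ldah itself had a mean of 124 TPM in LDAH-Tg PM against 28.5 TPM in Tg control PM. It had 27.9 TPM in LDAH-KO PM against 44.5 TPM in KO control PM, so Ldah reads remained in LDAH-KO PM. The paper reports a complete knockout in homozygotes by PCR and western blotting. Means per gene do not tell which exons the remaining reads cover. The macrophage gene Lyz2, which encodes lysozyme, was listed at 0 in 3 groups, so a 0 in this table may be a failed estimate.

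Collagens are the main structural proteins of the extracellular matrix. Their alpha chains wind around one another into a triple helix, which needs glycine, the smallest amino acid, at the first place of each Gly-X-Y triplet. Fibrillar collagens (I, II, III, V, XI, XXIV and XXVII) build the fibres of connective tissue and of the fibrous cap of an atherosclerotic plaque. Collagen IV forms the network of basement membranes, collagen VI forms beaded filaments around cells, and the FACIT collagens sit on the surface of fibrils. Fibroblasts, smooth muscle cells and mesothelial cells are the usual sources of fibrillar collagen, and macrophages are better known for taking up and degrading it.

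The repeat that unites the family can be read in the coding sequence, and 81 bases from 5 of the best-covered chains are shown to make this visible. Each stretch opens the longest unbroken Gly-X-Y run of its chain in GENCODE M21 (GRCm38), and capitals mark the glycine codon at the first place of each triplet. In the Col3a1 stretch the lower-case codons gga and ggt encode further glycines at other places.
Col1a1, exons 6 to 8, chr11:94939451-94939930, plus strand: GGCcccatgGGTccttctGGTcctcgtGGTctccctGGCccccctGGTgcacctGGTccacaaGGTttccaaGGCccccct
Col1a2, exons 6 to 8, chr6:4512406-4515507, plus strand: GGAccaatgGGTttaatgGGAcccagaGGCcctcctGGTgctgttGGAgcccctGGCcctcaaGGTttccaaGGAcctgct
Col3a1, exons 5 to 6, chr1:45323762-45325404, plus strand: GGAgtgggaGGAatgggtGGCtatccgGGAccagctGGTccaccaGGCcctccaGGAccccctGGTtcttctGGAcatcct
Col4a1, exons 2 to 3, chr8:11247033-11267614, minus strand: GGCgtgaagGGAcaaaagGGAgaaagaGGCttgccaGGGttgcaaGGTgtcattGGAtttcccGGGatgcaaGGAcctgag
Col6a1, exons 8 to 9, chr10:76719632-76720996, minus strand: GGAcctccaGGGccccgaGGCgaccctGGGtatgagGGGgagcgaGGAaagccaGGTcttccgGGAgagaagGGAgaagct
The run was unbroken for 338 triplets in Col1a1, 339 in Col1a2 and 344 in Col3a1. In Col4a1 the longest unbroken run had 40 triplets, since interruptions divide the helix of collagen IV, and in Col6a1 it had 87. Over the 44 chains the longest run was between 23 and 344 triplets, and 9 chains, all fibrillar, had a run of 337 or more.

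Of the 44 chains, 9 reached a mean of 1 TPM in at least 1 group, 15 had their highest mean between 0.1 and 1 TPM, and 17 stayed under 0.1 TPM. The remaining 3, Col9a1, Col9a2 and Col25a1, were listed at 0 in all groups. Summed over all chains, collagen came to 37.8 TPM in LDAH-Tg PM against 32.9 TPM in Tg control PM, and to 15.0 TPM in LDAH-KO PM against 32.2 TPM in KO control PM. The sum of LDAH-Tg PM was thus 115% of its control and that of LDAH-KO PM was 46.5% of its control. Both control groups had nearly the same sum. Fibrillar chains made up the largest part, with 20.9 TPM in LDAH-Tg PM against 16.7 TPM in Tg control PM, and with 6.75 TPM in LDAH-KO PM against 17.1 TPM in KO control PM.

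**Figure D1:**
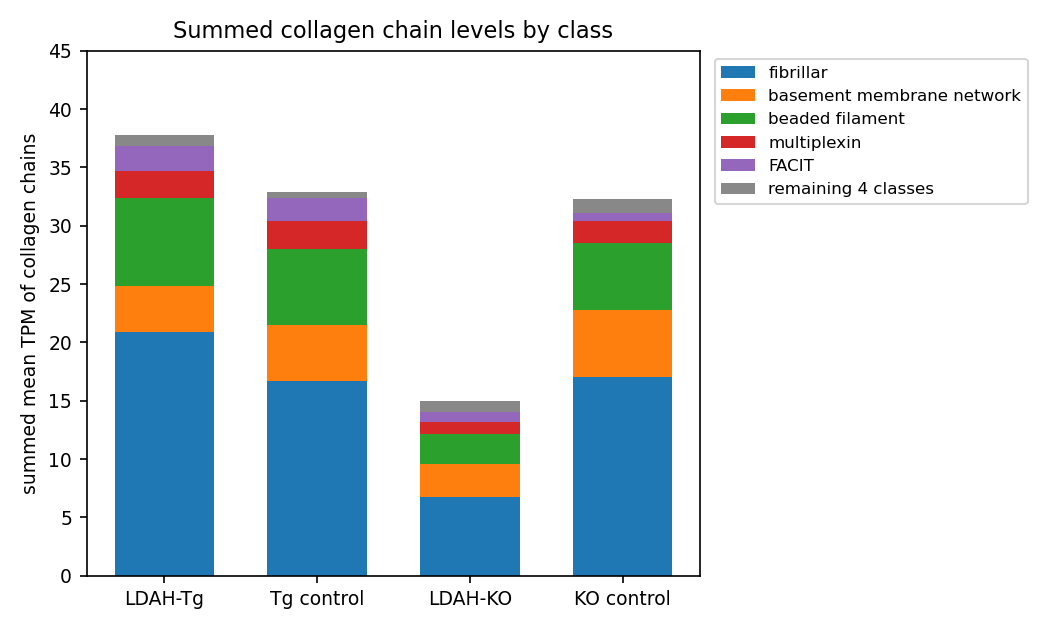
Summed mean TPM of the collagen chains in each group (vertical axis, TPM from 0), stacked by class, with LDAH-Tg left of Tg control and LDAH-KO left of KO control. The LDAH-KO bar stands at 15.0 TPM against 32.2 TPM for KO control, and of the 6 bands only that of the FACIT collagens is larger in it. The top band merges 4 minor classes (0.993 TPM in LDAH-KO against 1.13 TPM in KO control), among which the anchoring fibril chain Col7a1 was higher in LDAH-KO.

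Col1a2 (ENSMUSG00000029661.16) was the most abundant chain in every group. Its protein joins 2 copies of the Col1a1 product in the collagen I helix. Col1a2 had 8.16 TPM in LDAH-Tg PM against 6.94 TPM in Tg control PM, and 2.40 TPM in LDAH-KO PM against 6.34 TPM in KO control PM. Col1a1 (ENSMUSG00000001506.10) had 5.44 TPM in LDAH-Tg PM against 3.26 TPM in Tg control PM, and 0.880 TPM in LDAH-KO PM against 2.44 TPM in KO control PM. The Col1a1 transcript was therefore scarcer than that of Col1a2 in all 4 groups, with 0.668 Col1a1 transcripts per Col1a2 transcript in LDAH-Tg PM, 0.469 in Tg control PM, 0.367 in LDAH-KO PM and 0.385 in KO control PM. Col3a1 (ENSMUSG00000026043.18), whose product forms a helix of 3 like chains that shares fibrils with collagen I, had 3.90 TPM in LDAH-Tg PM against 3.77 TPM in Tg control PM, and 1.61 TPM in LDAH-KO PM against 4.75 TPM in KO control PM. Col5a2, a chain of the collagen that starts fibril assembly, had 1.02 TPM in LDAH-Tg PM against 0.945 TPM in Tg control PM, and 0.775 TPM in LDAH-KO PM against 1.80 TPM in KO control PM. All 4 of these fibrillar chains had a lower mean in LDAH-KO PM than in KO control PM, and a higher one in LDAH-Tg PM than in Tg control PM. Of all genes of 1 to 10 TPM, 71.4% were lower in LDAH-KO PM and 55.0% higher in LDAH-Tg PM by any size. In LDAH-Tg PM, Col3a1 and Col5a2 were only at 103% and 108% of their control.

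The collagen VI chains Col6a1 and Col6a2 followed. Col6a1 had 4.05 TPM in LDAH-Tg PM against 3.43 TPM in Tg control PM, and 1.23 TPM in LDAH-KO PM against 2.92 TPM in KO control PM. Col6a2 had 2.71 TPM in LDAH-Tg PM against 2.30 TPM in Tg control PM, and 1.05 TPM in LDAH-KO PM against 2.15 TPM in KO control PM. Col6a3, the long chain of the usual collagen VI monomer, was scarcer. It had 0.656 TPM in LDAH-Tg PM against 0.761 TPM in Tg control PM, and 0.313 TPM in LDAH-KO PM against 0.578 TPM in KO control PM. These chains assemble in equal parts, yet 0.162 to 0.254 Col6a3 transcripts were counted per Col6a1 transcript over the 4 groups.

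Of the basement membrane chains, Col4a1 had 2.06 TPM in LDAH-Tg PM against 2.68 TPM in Tg control PM, and 1.78 TPM in LDAH-KO PM against 3.40 TPM in KO control PM. Its partner Col4a2 had 1.14 TPM in LDAH-Tg PM against 1.29 TPM in Tg control PM, and 0.566 TPM in LDAH-KO PM against 1.27 TPM in KO control PM. The protein holds 2 Col4a1 chains for each Col4a2 chain, and the ratio of the transcripts was 1.81 in LDAH-Tg PM, 2.07 in Tg control PM, 3.14 in LDAH-KO PM and 2.68 in KO control PM. Col15a1, a multiplexin of basement membrane zones, was the seventh of the 9 chains that reached 1 TPM. It had 1.70 TPM in LDAH-Tg PM against 1.94 TPM in Tg control PM, and 0.640 TPM in LDAH-KO PM against 0.990 TPM in KO control PM.

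**Figure D2:**
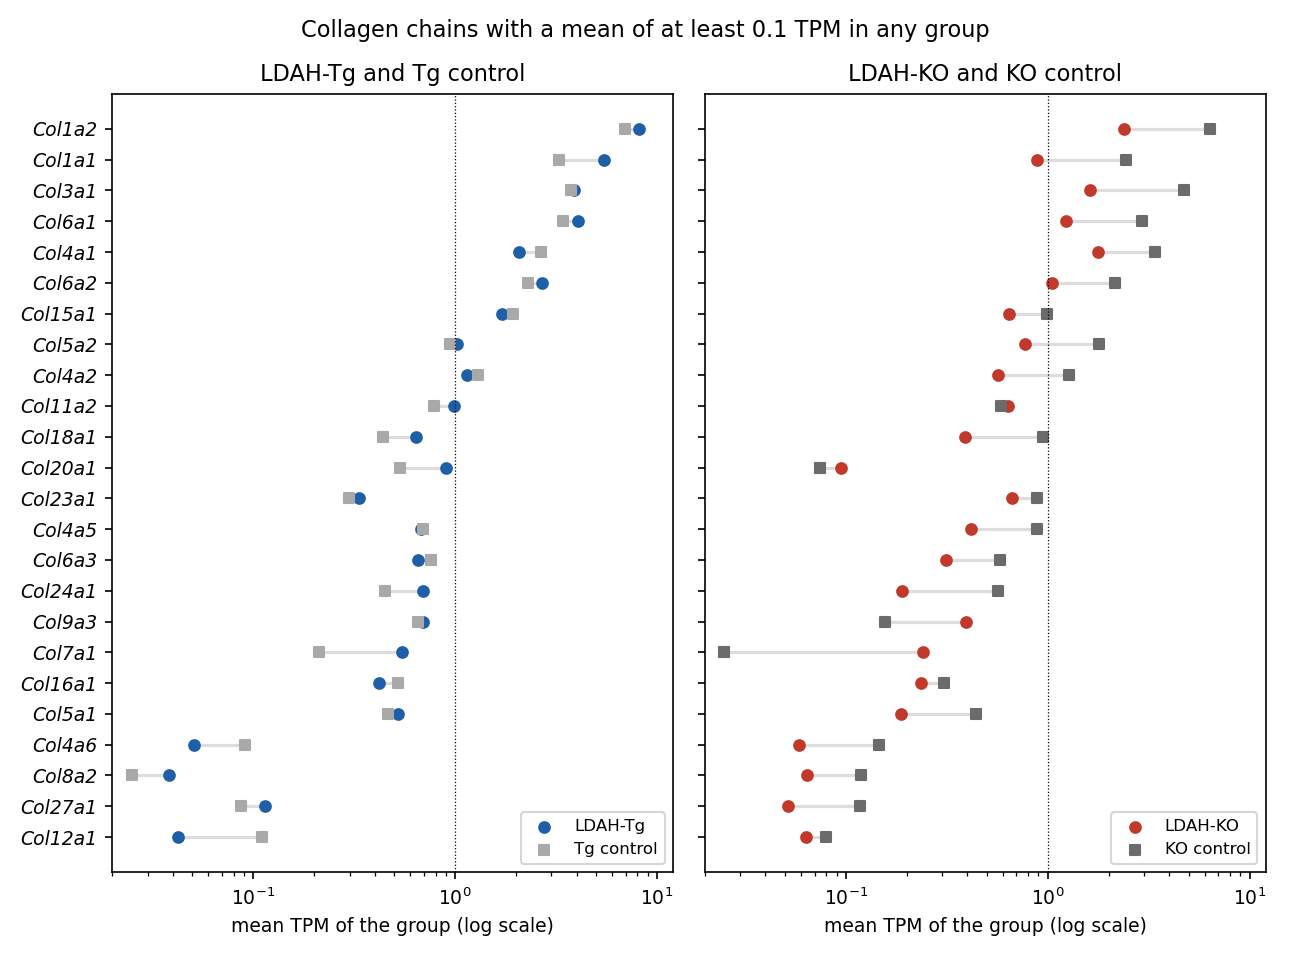
Mean TPM (horizontal axis, log scale) of the 24 chains that reached 0.1 TPM in any group, with circles for LDAH-Tg or LDAH-KO and squares for their own control. In the right panel the LDAH-KO circle lies left of its KO control square for 20 of the 24 chains, whereas in the left panel 16 of the 24 LDAH-Tg circles lie right of the square. Col4a6 and Col8a2 reached 0.1 TPM in KO control alone and Col12a1 in Tg control alone, so their direction follows from the choice. By the mean of both groups compared, 7 of 7 chains of at least 1 TPM and 10 of 13 of 0.1 to 1 TPM were lower in LDAH-KO. In LDAH-Tg, 5 of 8 and 10 of 13 were higher. Of all genes of 1 to 10 TPM, 71.4% were lower in LDAH-KO by any size and 55.0% higher in LDAH-Tg, and of those of 0.1 to 1 TPM 66.8% and 56.9%.

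LDAH-KO PM had lower levels of most chains than KO control PM, the fibrillar chains, collagen IV and collagen VI among them. Of the 7 chains with enough signal to enter, 7 were lower by the factor of 1.5 and 0 higher, with a median log2 ratio of -0.98. Over all 11289 genes that entered, 1.83% were lower by this factor, 0.39% were higher, and the median was -0.08. Chains of this level are better set beside genes of like level, and of the 3818 genes with a mean of 1 to 10 TPM, 4.5% were lower by the factor and 0.969% higher. Col3a1 had the lowest log2 ratio (-1.31), below which lay 15 of these 3818 genes. Col1a2 followed at -1.24 and Col1a1 at -1.09. Col6a1 (-0.98), Col5a2 (-0.85), Col4a1 (-0.78) and Col6a2 (-0.77) completed the 7, and 93 of the 3818 genes lay below Col6a2. As plain ratios of the means, LDAH-KO PM kept 34.0% of the Col3a1, 36.1% of the Col1a1 and 37.8% of the Col1a2 level of KO control PM. They kept 42.3% of the Col6a1, 48.9% of the Col6a2 and 52.3% of the Col4a1 level. The collagen I and III chains were the lowest of the 7 by this measure, although the spread between mice that would rank them is not known. Col4a2, whose mean over both groups was just under 1 TPM, was at 44.6%.

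**Figure D3:**
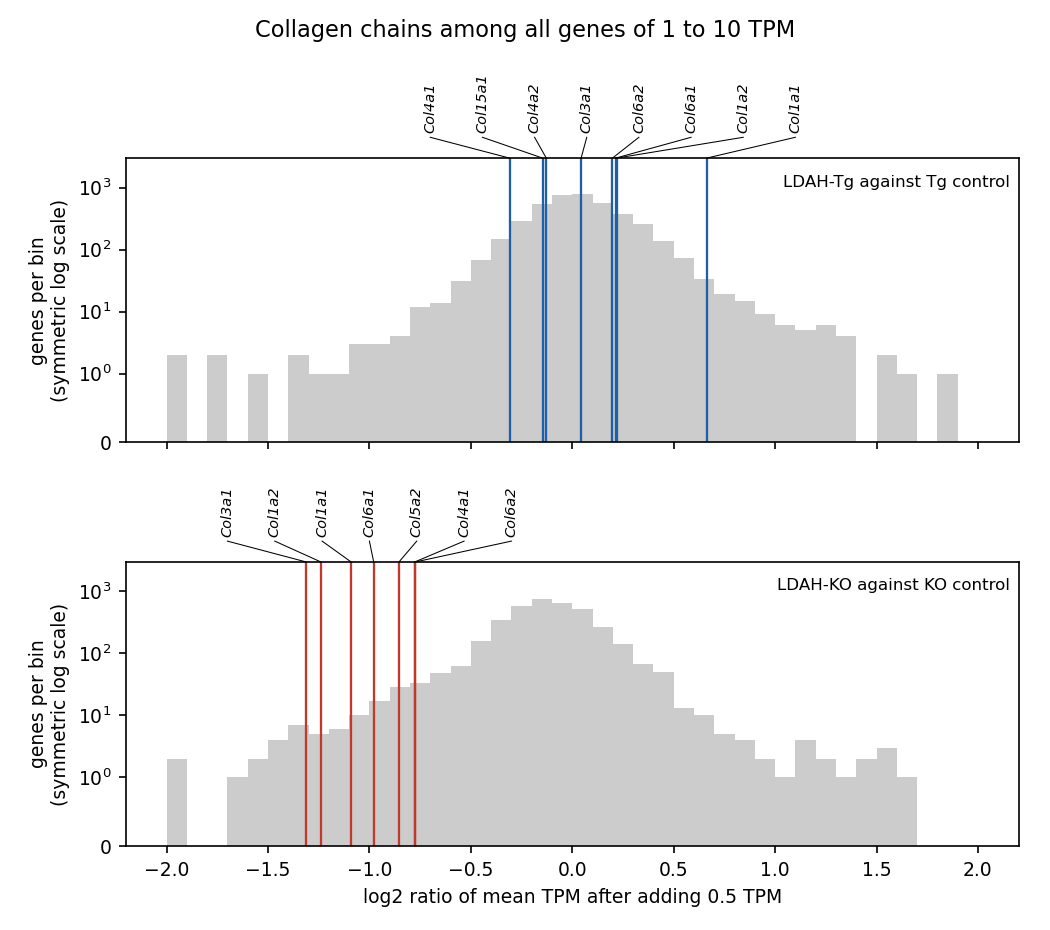
Log2 ratios of mean TPM after adding 0.5 TPM (horizontal axis) for all genes of 1 to 10 TPM (grey bars, genes per bin on a symmetric log scale, with ratios beyond 2 placed in the end bins) and for single collagen chains (coloured lines). In the lower panel all 7 chains of LDAH-KO against KO control lie at or below -0.77, and in the upper panel the 8 chains of LDAH-Tg against Tg control spread from -0.31 for Col4a1 to 0.66 for Col1a1.

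The chains below 1 TPM were compared by plain ratios, since 0.5 TPM would have hidden their differences. Among the 13 chains with a mean of 0.1 to 1 TPM in the LDAH-KO comparison, 8 were lower by the factor and 2 higher. Of all 3544 genes in this band, 31.3% were lower and 11.4% higher, so ratios of this size are common at such levels. Col24a1, a minor fibrillar chain, had 0.189 TPM in LDAH-KO PM against 0.568 TPM in KO control PM, or 33.3% of its control. Col18a1, the multiplexin that releases endostatin, had 0.389 TPM in LDAH-KO PM against 0.943 TPM in KO control PM. Col5a1, the partner of Col5a2, was at 42.7% of its control, close to the 42.9% of Col5a2. Col4a5 was at 47.5% and Col4a6 at 40.5% of the control. Col6a3 was at 54.1%, and Col15a1 at 64.6%.

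Some chains did not share this pattern. Col16a1 (a FACIT chain, 0.235 TPM in LDAH-KO PM against 0.307 TPM in KO control PM) and Col23a1 (a transmembrane chain, 0.665 TPM in LDAH-KO PM against 0.884 TPM in KO control PM) kept 76.6% and 75.2% of their control. Col11a2, a fibrillar chain best known from cartilage, had 0.638 TPM in LDAH-KO PM against 0.584 TPM in KO control PM. Its longest unbroken run is 338 triplets, as in Col1a1. Col9a3, a FACIT chain of cartilage whose partners Col9a1 and Col9a2 were listed at 0, had 0.393 TPM in LDAH-KO PM against 0.156 TPM in KO control PM. Col7a1, the anchoring fibril chain of skin, had 0.241 TPM in LDAH-KO PM against 0.0250 TPM in KO control PM. Col20a1, another FACIT chain, had 0.0943 TPM in LDAH-KO PM against 0.0748 TPM in KO control PM. In all, 20 of the 24 chains that reached 0.1 TPM in any group were below their control and 4 above it. Col4a6 and Col8a2 reached 0.1 TPM in KO control PM alone, so their direction follows from the choice of chains. By the mean of both groups compared, 7 of 7 chains of at least 1 TPM and 10 of 13 of 0.1 to 1 TPM were below their control. By any size, 71.4% of all genes of 1 to 10 TPM and 66.8% of those of 0.1 to 1 TPM were also below it.

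LDAH-Tg PM differed from their control by smaller amounts and in both directions. Of the 8 chains that entered, 1 was higher by the factor of 1.5 and 0 lower, 5 were higher and 3 lower by any size (55.0% of genes of 1 to 10 TPM were higher), and the median log2 ratio was 0.12. Over all 11395 genes, 1.26% were higher by the factor, 0.685% were lower and the median was 0.00, and among the 4177 genes of 1 to 10 TPM, 2.56% were higher and 1.15% lower. The 1 chain was Col1a1, at 167% of Tg control PM with a log2 ratio of 0.66, which 82 of the 4177 genes exceeded. Col1a2 (117.5% of the control, log2 ratio 0.22), Col6a1 (0.21) and Col6a2 (0.20) were higher by less than the factor, and 855 of the 4177 genes had a higher ratio than Col1a2. Col3a1 had nearly equal means, at a log2 ratio of 0.04, which was -0.01 after quantile normalization. The collagen IV chains lay on the other side of 0, with -0.31 for Col4a1 and -0.13 for Col4a2, as did Col15a1 at -0.15. Since Col1a1 differed more than Col1a2 and Col3a1, collagen I made up 36.0% of the collagen sum in LDAH-Tg PM and 31.0% in Tg control PM, and collagen IV 10.4% in LDAH-Tg PM and 14.5% in Tg control PM.

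Among the 13 chains with a mean of 0.1 to 1 TPM in the LDAH-Tg comparison, 3 were higher by the factor as a plain ratio and 0 were lower. Of the 3637 genes of this band, 22.7% were higher and 14.2% lower, so a count of 3 of 13 was near that of all genes. Col7a1 had 0.545 TPM in LDAH-Tg PM against 0.211 TPM in Tg control PM. Col20a1 had 0.901 TPM in LDAH-Tg PM against 0.535 TPM in Tg control PM, and Col24a1 had 0.695 TPM in LDAH-Tg PM against 0.451 TPM in Tg control PM. Col18a1 (0.638 TPM in LDAH-Tg PM against 0.441 TPM in Tg control PM) and Col11a2 (0.989 TPM in LDAH-Tg PM against 0.785 TPM in Tg control PM) were higher by less than that. Col5a1, Col5a2, Col9a3, Col23a1 and Col4a5 lay between 97.8% and 112% of the control, Col6a3 at 86.3% and Col16a1 at 80.0%. At the lowest levels shown, Col27a1, Col8a2, Col4a6 and Col12a1 did not pass 0.146 TPM in any group.

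**Figure D4:**
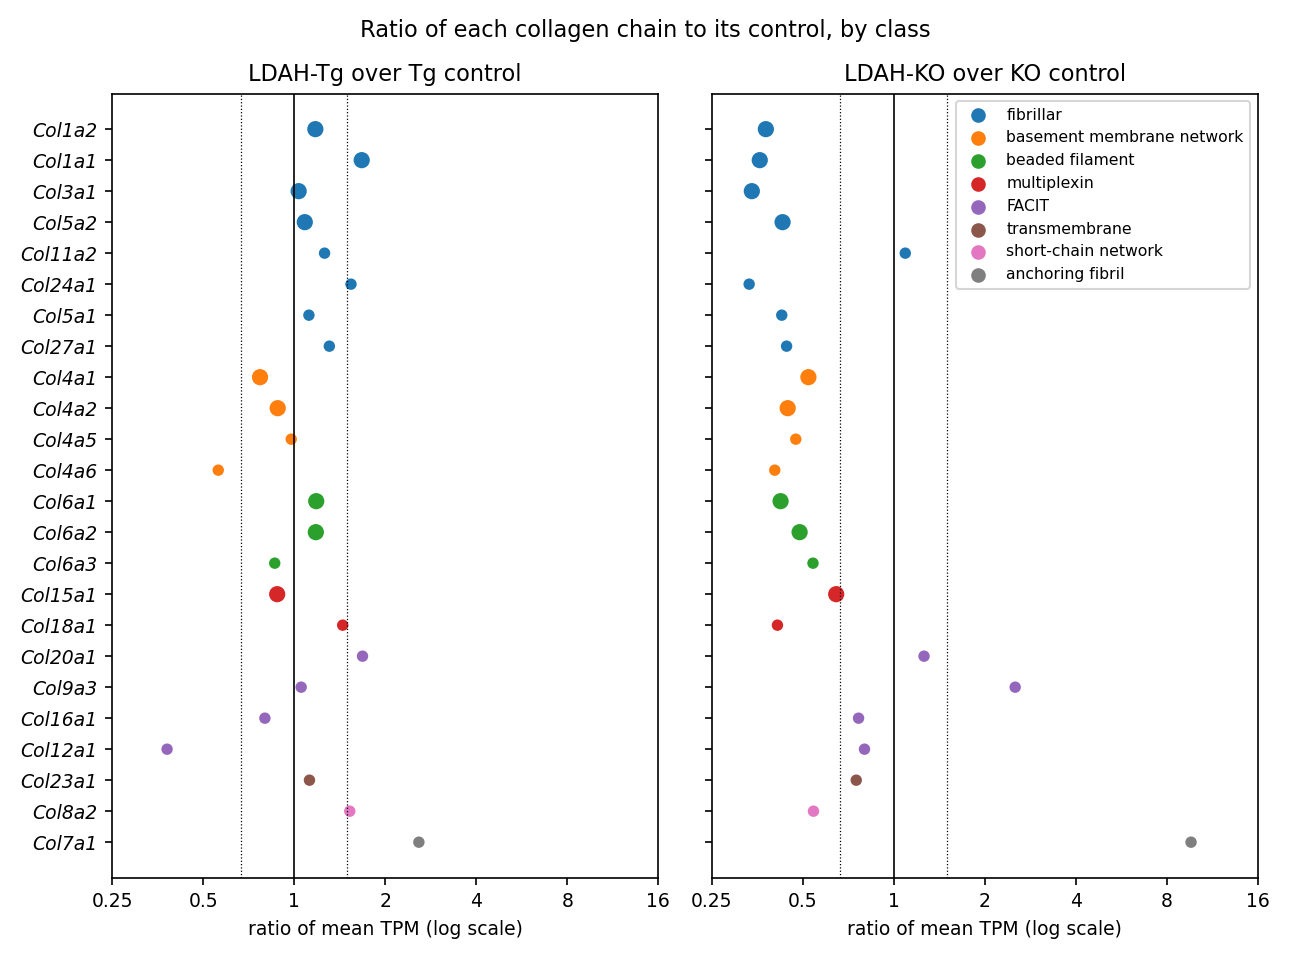
Ratio of mean TPM to the control (horizontal axis, log scale, no TPM added) of the 24 chains that reached 0.1 TPM, coloured by class, with large points for chains of at least 1 TPM in any group. The solid line marks equal means and the dotted lines a factor of 1.5. The fibrillar, collagen IV and collagen VI chains lie between 0.333 and 0.541 in LDAH-KO PM except Col11a2 at 1.09, and in LDAH-Tg PM the 4 collagen IV chains lie below 1 and the 8 fibrillar chains above it. By any size, 55.0% of all genes of 1 to 10 TPM and 56.9% of those of 0.1 to 1 TPM were higher in LDAH-Tg PM.

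By class, the fibrillar sum of LDAH-KO PM was 39.5% of its control, the collagen VI sum 45.3%, the collagen IV sum 49.5% and that of the multiplexins 53.2%. The FACIT sum was 119% of its control, at 0.804 TPM in LDAH-KO PM against 0.676 TPM in KO control PM. Col7a1, the only anchoring fibril chain, was at 963% of a control level of 0.0250 TPM, the transmembrane chains at 74.1% and the short-chain network chains at 45.6%. In LDAH-Tg PM the same sums were 125% for fibrillar chains, 115% for collagen VI, 82.7% for collagen IV, 98.4% for the multiplexins and 111% for the FACIT chains. They were 258% for Col7a1, 114% for the transmembrane chains and 128% for the short-chain network chains. Without Col1a1, Col1a2 and Col3a1 the other 41 chains summed to 107% of the control in LDAH-Tg PM and 54.0% in LDAH-KO PM.

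The 2 control groups came from different mouse lines, and several chains differed between them. Of 9 chains with values in Tg control against KO control PM, Col15a1 was higher by the factor (log2 ratio 0.71) and Col5a2 lower (-0.67). Over all 11404 genes, 12.1% were higher and 26.5% lower by this factor, with a median of -0.17. After scaling by the median ratio, 2123 genes were higher and 2096 lower, against 1377 higher and 3027 lower as deposited, and Col5a2 no longer reached the factor (-0.55). Col7a1 (0.211 TPM in Tg control PM and 0.0250 TPM in KO control PM), Col20a1 (0.535 TPM in Tg control PM and 0.0748 TPM in KO control PM) and Col9a3 (0.659 TPM in Tg control PM and 0.156 TPM in KO control PM) were each several-fold higher in Tg control PM. As ratios, though not for all of them in TPM, these 3 chains differed more between the controls than between LDAH-Tg PM and Tg control PM. For Col7a1 the ratios were 8.43 and 2.58. Ratios for LDAH-Tg PM and LDAH-KO PM are given against the matching control.

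Several chains lie side by side in the genome, and their ratios in LDAH-KO PM are given here pair by pair. Col4a1 (chr8:11198423-11312826, minus strand) and Col4a2 (chr8:11312805-11449287, plus strand) are read in opposite directions and overlap by 22 bases at their starts, with 52.3% and 44.6% of the control left in LDAH-KO PM. Col4a6 and Col4a5, which share a promoter region on chromosome X with 1308 bases between them, had 40.5% and 47.5% left. Col3a1 (chr1:45311538-45349706) and Col5a2 (chr1:45374321-45503282), whose ends face each other 24614 bases apart, had 34.0% and 42.9% left. Col6a2 and Col6a1 stand 85161 bases apart on chromosome 10, with 48.9% and 42.3% left. Chains on other chromosomes, such as Col1a1 on chromosome 11 and Col1a2 on chromosome 6, were as low (36.1% and 37.8%). The counting method's use of strand was not given, which matters for genes that overlap. Col20a1 shares exon sequence with BX649560.1 on the same strand, which had 2.51 to 2.96 TPM in the 4 groups, more than Col20a1 itself, so the level of Col20a1 is uncertain. Col9a3 overlaps Tcfl5 on the opposite strand over 234 bases, and Tcfl5 did not pass 0.0173 TPM. Col18a1 overlaps Slc19a1 (4.73 to 6.74 TPM) without shared exon sequence.

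Promoters were read from RefSeq windows (GRCm38.p6), which were found for 35 of the 44 chains and not for Col1a1, Col2a1, Col4a3, Col5a2, Col9a3, Col12a1, Col14a1, Col22a1 and Col26a1. Col1a1, the only one past the factor among the 8 chains that entered for LDAH-Tg PM, and Col5a2 were thus not searched. Of the 7 chains that entered for LDAH-KO PM, Col3a1 had the lowest log2 ratio and Col6a2 the one closest to 0. Among the windows of these 7 chains, only the 2 shown, from Col3a1 and Col6a2, hold no annotated exon. A further Col6a2 window, with 64.4% G and C, overlaps a Col6a2 exon and is not shown. Each is the 250 bases before the start, 5′ to 3′, with capitals for TATAAA or GGGCGG on either strand.
Col3a1, chr1:45311288-45311537, plus strand: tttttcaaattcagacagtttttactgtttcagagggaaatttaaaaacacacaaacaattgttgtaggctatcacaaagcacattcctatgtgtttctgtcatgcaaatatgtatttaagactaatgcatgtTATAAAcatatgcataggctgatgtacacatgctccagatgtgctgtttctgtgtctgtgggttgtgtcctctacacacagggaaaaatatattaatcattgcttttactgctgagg
Col6a2, chr10:76623631-76623880, minus strand: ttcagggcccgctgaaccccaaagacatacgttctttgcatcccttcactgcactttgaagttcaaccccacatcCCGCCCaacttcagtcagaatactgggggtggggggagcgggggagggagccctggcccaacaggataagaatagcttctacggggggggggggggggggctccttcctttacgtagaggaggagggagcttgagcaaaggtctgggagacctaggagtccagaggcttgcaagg
The Col3a1 window has 35.2% G and C with 1 TATAAA from base -117 to -112, and the Col6a2 window has 59.2% G and C with 1 GGGCGG on the opposite strand from base -175 to -170. The 35 chains had 38 windows. On both strands, GGGCGG was found in 22 of the 38 windows, from 21 chains, and in 32.7% of all 32851 promoter windows of the same length. CCAAT was found in 13 of the 38 and in 33.8% of all windows, and TATAAA in 5 of the 38 and in 12.4% of all windows. A direct repeat of AGGTCA with 4 bases between, the form known for LXR receptors, was in 0 of the 38 windows and in 5 of all windows. The absence of these letters from 250 bases says nothing of binding elsewhere. Motif matches are a description of the letters and were not tied to any measurement.

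Collagen chains are modified, folded and cut by a set of dedicated proteins, and a list of 40 symbols for them, 35 of which were in the table, was set beside the chains. In LDAH-KO PM, 3 of the 20 with values were lower by the factor of 1.5 and 0 higher, with a median log2 ratio of -0.14. Over all genes that entered, 1.83% were lower by this factor, and the median was -0.08. Among genes of 1 to 10 TPM, 4.5% were lower by it, and the median was -0.12. Sparc, a matrix protein that binds collagen, had 19.9 TPM in LDAH-KO PM against 42.4 TPM in KO control PM (log2 ratio -1.07). Serpinh1, the collagen chaperone HSP47, had 7.90 TPM in LDAH-KO PM against 15.0 TPM in KO control PM (-0.88). Pcolce, which enhances cleavage of the C-propeptide, had 0.829 TPM in LDAH-KO PM against 1.84 TPM in KO control PM (-0.81), and the collagen prolyl isomerase gene Fkbp10 came next at -0.55. The other list members with values lay within the factor. P4hb, the beta subunit of prolyl 4-hydroxylase, had a log2 ratio of -0.17, the lysyl hydroxylase gene Plod3 -0.15 and the cyclophilin gene Ppib 0.13. The collagen-modifying enzyme genes Colgalt1 (-0.03), P4ha1 (-0.05), Plod1 (-0.14) and P3h1 (-0.24) also stayed near their control. Below 1 TPM, the crosslinking enzyme genes Lox (0.417 TPM in LDAH-KO PM against 0.898 TPM in KO control PM) and Loxl2 (0.286 TPM in LDAH-KO PM against 0.766 TPM in KO control PM) were lower.

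In LDAH-Tg PM, 0 of 21 machinery genes with values were past the factor in either direction, with a median of -0.03. Over all genes that entered, 1.26% were higher by the factor and 0.685% lower, and the median was 0.00. Of the machinery genes, Pcolce had the largest log2 ratio (0.39), with 3.96 TPM in LDAH-Tg PM against 2.91 TPM in Tg control PM. Mia3, which loads procollagen for export from the ER, had the lowest (-0.32), followed by Tmem38b, an ER ion channel gene, and Plod3, both at -0.26. Of the 12 collagen receptor genes, 4 had values in the LDAH-KO comparison, and the kinase receptor gene Ddr1 was lower by the factor (0.749 TPM in LDAH-KO PM against 1.55 TPM in KO control PM, log2 ratio -0.72). The mannose receptor gene Mrc1, whose product takes up collagen, was at -0.37, the integrin subunit gene Itgb1 at -0.11 and the inhibitory collagen receptor gene Lair1 at 0.03. In LDAH-Tg PM, 3 receptor genes had values and 0 passed the factor, with Itgb1 at -0.43, Lair1 at -0.24 and Mrc1 at -0.10.

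The means are of whole cultures, in which fewer cells of a type and less RNA per cell cannot be told apart. Markers of other cell types were therefore set beside the chains. Among 12 fibroblast markers, 11 were lower in LDAH-KO PM than in KO control PM by any size, including Pdgfra (1.83 TPM in LDAH-KO PM against 4.74 TPM in KO control PM, log2 ratio -1.17) and Dcn (11.6 TPM in LDAH-KO PM against 19.8 TPM in KO control PM, -0.74). Gsn, which macrophages also express, had 318 TPM in LDAH-KO PM against 319 TPM in KO control PM, and the other 11 summed to 15.1 TPM in LDAH-KO PM against 27.6 TPM in KO control PM. Of 12 mesothelial markers 10 were lower, including Wt1 (1.35 TPM in LDAH-KO PM against 2.75 TPM in KO control PM), and they summed to 8.01 TPM in LDAH-KO PM against 12.7 TPM in KO control PM. Of 7 smooth muscle and pericyte markers 6 were lower, including Acta2 (4.25 TPM in LDAH-KO PM against 7.92 TPM in KO control PM) and Des (1.20 TPM in LDAH-KO PM against 3.04 TPM in KO control PM), and they summed to 8.05 TPM in LDAH-KO PM against 15.3 TPM in KO control PM. By any size, 66.8% (0.1 to 1 TPM) to 71.4% (1 to 10 TPM) of all genes were lower in this comparison. By the factor of 1.5 as a plain ratio, 9 of the 12 fibroblast, 5 of the 12 mesothelial and 6 of the 7 smooth muscle and pericyte markers were lower. Clec3b of the fibroblast list and Cspg4 of the smooth muscle list were higher. Of all genes of 0.1 to 1 TPM, 31.3% were lower and 11.4% higher by this measure. Of genes of 1 to 10 TPM, with 0.5 TPM added, 4.5% were lower and 0.969% higher. No marker of these 3 lists was at 0 in either group. The median plain ratio was 0.531 for the fibroblast, 0.707 for the mesothelial and 0.424 for the smooth muscle and pericyte list. The 7 chains lay between 34.0% and 52.3% of the control. The 0.424 is the ratio of Cnn1, with 0.0236 TPM in LDAH-KO PM against 0.0558 TPM in KO control PM. Rgs5, Cspg4, Myh11, Pdgfrb, Pi16, Clec3b and Muc16 were also under 0.1 TPM in both groups. The bands of all genes do not cover such levels. The part of these markers in the lower collagen levels was not tested.

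Macrophage markers moved little in the same comparison. Of 7 with values, 0 passed the factor, with a median log2 ratio of -0.14 and the range of -0.33 for Itgam to 0.03 for Cd14. Csf1r had 94.2 TPM in LDAH-KO PM against 108 TPM in KO control PM, and Cd68 had 3023 TPM in LDAH-KO PM against 3321 TPM in KO control PM. The whole list of 8 summed to 3594 TPM in LDAH-KO PM against 3970 TPM in KO control PM. In LDAH-Tg PM, 0 of the markers with values passed the factor. Tagln (1.87 TPM in LDAH-Tg PM against 1.19 TPM in Tg control PM, log2 ratio 0.49) and the macrophage marker Adgre1 (22.4 TPM in LDAH-Tg PM against 33.1 TPM in Tg control PM, -0.55) came nearest to it. Pdgfra was at 0.19 and Dcn at -0.24, so the fibroblast markers did not all lie on the side of Col1a1. As plain ratios at any level, 3 of the 12 fibroblast markers were higher by the factor and 2 lower. Of all genes of 0.1 to 1 TPM, 22.7% were higher and 14.2% lower by this measure. Thy1 had 0.497 TPM in LDAH-Tg PM against 0.219 TPM in Tg control PM, Clec3b had 0.251 TPM in LDAH-Tg PM against 0.0625 TPM in Tg control PM, and Pi16 stayed under 0.1 TPM. Lum (0.251 TPM in LDAH-Tg PM against 0.448 TPM in Tg control PM) and Mfap5 were the 2 that were lower. Of the 12 mesothelial markers 0 were higher and 2 lower by this measure. Of the 7 smooth muscle and pericyte markers 2 were higher, Tagln and Myh11, and 1 lower, and Myh11 stayed under 0.1 TPM. The part of these markers in the Col1a1 level was not tested. Of 6 endothelial markers 2 had values, with medians of -0.20 for LDAH-KO PM and 0.06 for LDAH-Tg PM. Of 7 markers of other leukocytes 2 had values, with medians of 0.01 for LDAH-KO PM and -0.17 for LDAH-Tg PM. Below 1 TPM, the neutrophil gene S100a9 had 0.740 TPM in LDAH-Tg PM against 0.0474 TPM in Tg control PM, while S100a8, its partner, had a log2 ratio of -0.12.

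**Figure D5:**
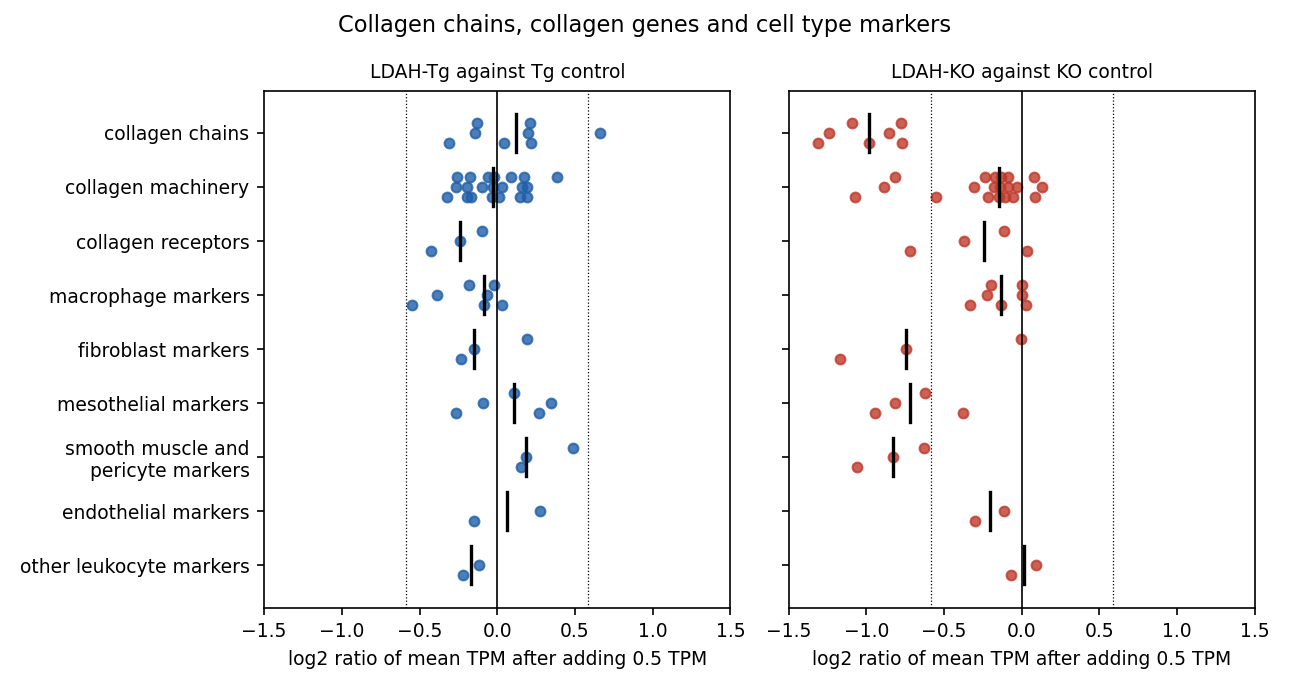
Log2 ratios of mean TPM after adding 0.5 TPM (horizontal axis) for single genes (points) of the collagen chains, the collagen machinery and receptor lists and the cell type marker lists, with a bar at each median and dotted lines at a factor of 1.5. In LDAH-KO against KO control the medians are -0.98 for the chains, -0.74 for 3 fibroblast, -0.72 for 4 mesothelial and -0.83 for 3 smooth muscle and pericyte markers, -0.14 for the machinery and -0.14 for the macrophage markers. In LDAH-Tg against Tg control Col1a1 alone is past the line.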

How the data were processed

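RNA of oxLDL-treated PM was sequenced by the authors as stranded poly(A) libraries (100-base paired reads). The submitters' notes list STAR 2.4.2a, Trimmomatic, HTSeq, bcl2fastq 2.17.1.14 and Cuffdiff 2.2.1 among the tools, and mm10 (GRCm38) as genome. The tool behind the TPM values is not given in the sources used here. The deposited unit is the authors' mean TPM per group and gene, with other lines than genes (1, the total of 1000000) left out. Tests over samples had been planned, but no column held a single sample, so ratios of means were described instead. All 44 chains were matched to GENCODE M21 by gene ID without version. Chains of 1 TPM or more were given with all 4 values, those from 0.1 TPM with their range or values. Up to 4 genes of each list were given by size of ratio. Lox, Loxl2, P4hb, Ppib, Colgalt1, P4ha1, Plod1, P3h1, Plod3 in LDAH-KO PM and the single markers were chosen after their values were seen. The members and lists were chosen with earlier results of these data known. Alternatives were other pseudocounts, minimum levels, scalings and a factor of 2, and no pseudocount and bands of like level were added after seeing the data. The ratio step alone was run on the means with known changes put in and no noise added, which checks the arithmetic only. Protein sequences were not used here. The scripts used pandas 2.3.3 and numpy 2.4.6.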

Additional observations from a re-analysis of the deposited data

How the results depend on the processing

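The 7 chains that were lower in LDAH-KO PM were also lower by the factor of 1.5 under pseudocounts of 0.1 and 1, both scalings and no pseudocount, with medians between -1.24 and -0.81. With no filter on low values the count was 11 and the median -0.21, with a factor of 2 the count was 3, without the chains of the study's heat map (Col1a1, Col1a2, Col5a2, Col6a1, Col6a2) it was 2 of 2, and at a minimum of 5 TPM no chain entered. For the machinery list in LDAH-KO PM, 5 genes were lower with no filter or a minimum of 0.5 TPM and 1 at a factor of 2, against 3. All genes in that comparison split into 80 higher and 134 lower after quantile normalization, against 44 and 207 as deposited. For LDAH-Tg PM, 0 chains were higher at a minimum of 5 TPM, at a factor of 2 or without the chains of the heat map, where the median turned to -0.14, and Col3a1 turned to -0.0081 after quantile normalization. Between the controls, 0 chains were higher and 0 lower with a pseudocount of 1, a minimum of 5 TPM or a factor of 2, 3 were higher and 3 lower with no filter, 3 were lower at a minimum of 0.5 TPM, and after median-ratio scaling the median was 0.23 and 0 were lower. No paired analysis was possible because the table holds group means only, and for the same reason no replicate could be left out. Depth is unknown, so no counting error can be given for any chain.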
